A study of Mus musculus with 32 samples.

Results

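The 33 transcripts described here were the ones that stayed well expressed and nearly level in a set of 32 mouse RNA sequencing libraries, out of 55419 transcripts listed and 15230 tested. A transcript was taken when its RPKM (reads per kilobase of transcript, scaled for the reads of the library) was at least 50 in every library, when its highest RPKM was at most 3 times its lowest, and when the medians of the 4 tissue types lay within a factor of 1.5 of each other. Tumours gave 26 of the libraries: 13 from clear cell sarcoma, 7 from osteosarcoma and 6 from synovial sarcoma. The remaining 6 are controls. Clear cell sarcoma, a soft tissue tumour that carries a fusion of EWSR1 and ATF1 in patients, is labelled by the Cre that started it, Rosa26CreER (5 libraries), TATCre (4), Prx1CreERT2 (2) or Bmi1IRESCreERT2 (2), and its titles carry EA1, which the labels do not explain. The osteosarcoma titles give Rb1 and p53 with Col1Cre (4) or Prx1Cre (3), and those of synovial sarcoma begin with Myf5-SSM2/PLUC. Cre is a recombinase, TATCre is a form of it that enters cells as a protein, and a driver limits where Cre acts: Col1 regulatory sequence is active in bone-forming cells, Prx1 in limb mesenchyme and Myf5 in muscle precursors. Each tumour type carries its own alleles, so tissue type and genotype cannot be told apart. Chest stands in the titles of 5 control libraries and Bone in that of 1, with no further word on their tissue or genotype. Nothing says whether libraries came from separate animals, and some share a title number, so p-values measure the spread between these libraries, which may in part be technical.

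Transcripts whose level changes little between tissues are often used as a yardstick in expression studies, since sequencing gives shares of a library and not amounts per cell. When a few transcripts take a large part of a library, the shares of all the others shrink even if their amounts do not, and a yardstick is then one way to compare samples. A yardstick chosen for being level on a given scale is tied to that scale. Transcripts carry UCSC identifiers here, which neither the values nor any reference table used here links to genes, so neither the genes behind the 33 nor their roles or sequences can be given, the labelled tissues could not be checked against marker genes, and 4 identifiers stand for the rest.

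Stability of this kind was uncommon among abundant transcripts. An RPKM of at least 50 in every library was met by 775 transcripts, of which 54 had a highest over lowest RPKM of at most 3 and 134 had tissue medians within a factor of 1.5. Both limits together left 33, which is 4.26% of the 775. A further 101 transcripts had close tissue medians but a wider range over single libraries, and 21 had a narrow range but tissue medians further apart. Over the 33 the highest over lowest RPKM ran between 1.79 and 2.998 with a median of 2.66, against a median of 7.33 over the other 742, of which the widest had 380. At the edge of the rule, the members nearest the limit had ranges of 2.998 and 2.994 and the transcripts just outside it 3.03 and 3.05. The tissue medians of the members nearest that limit differed 1.49-fold, against 1.51-fold just outside, and the lowest RPKM were 52.2 and 54.8 just inside and 47.3 and 47.1 just outside. These values chose the members and are given as a description.

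**Figure D1:**
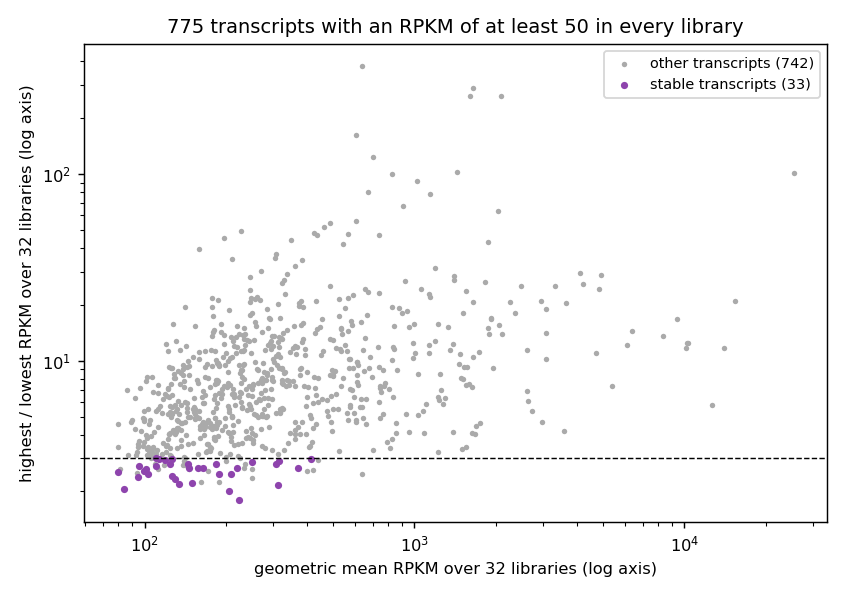
Highest over lowest RPKM (log axis) against geometric mean RPKM (log axis) over 32 libraries for the 775 transcripts that reached 50 RPKM in every library. Purple points are the 33 stable transcripts, all under the dashed limit of 3, with geometric means between 79.9 and 415 RPKM, whereas the other 742 (grey) reach 25396 RPKM.

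The 33 lay in the lower part of the abundant transcripts. Their geometric mean RPKM ran between 79.9 and 415 with a median of 145, against a median of 264 and a highest value of 25396 over the other 742. Above a common floor, a wider range goes with a higher mean, so this difference follows in part from the rule. None of the 33 was among the 10 most read transcripts of any library, a group that held 62 transcripts over the 32 libraries. The steps of the RPKM values gave back whole reads and a length for each transcript. Members had a median recovered length of 1320 bases (30 to 3620), against 635 bases over the other 742 and 1108 bases over the other 15197 tested. Only 2 of the 33 (6.06%) were shorter than 100 bases, compared with 193 of the 742 and 1601 of the 15197 (10.5%). All 33 lengths were different. The sources used here do not give the authors' definition of length.

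Transcript uc008rxw.1, of 1902 bases, had the narrowest range of all. Its RPKM had a lowest, median and highest value of 180, 225 and 292 in clear cell sarcoma, 175, 237 and 273 in osteosarcoma, 166, 220 and 271 in synovial sarcoma, and 163, 214 and 277 in the controls. Every tissue type overlapped every other, and the 3 tumour medians stood just above that of the controls. The log2 fold changes against the controls, from limma on log2(RPKM + 1), were 0.11 (SE 0.14) in clear cell sarcoma, 0.09 (SE 0.16) in osteosarcoma and 0.03 (SE 0.17) in synovial sarcoma. Transcript uc008sij.1, of 3312 bases, was the other member with a positive mean change chosen in this way. Its lowest, median and highest RPKM were 62.3, 82.4 and 110 in clear cell sarcoma, 54.8, 86.7 and 112 in osteosarcoma, 77.1, 90.9 and 109 in synovial sarcoma, and 66.97, 76.5 and 103 in the controls. The groups overlapped here as well, and the lowest library was the osteosarcoma Prx1Cre 42.

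Transcripts uc007ivb.1 and uc009osy.1 had the narrowest ranges among members whose mean change was negative. Transcript uc007ivb.1, of 1930 bases, had a lowest, median and highest RPKM of 140, 194 and 222 in clear cell sarcoma, 177, 257 and 281 in osteosarcoma, 190, 219 and 240 in synovial sarcoma, and 166, 234 and 269 in the controls. Its clear cell sarcoma values sat low, with a log2 fold change of -0.28 (SE 0.13), while those of osteosarcoma and synovial sarcoma were 0.08 (SE 0.15) and -0.02 (SE 0.15). Transcript uc009osy.1, of 2577 bases, had 103, 121 and 152 RPKM in clear cell sarcoma, 88.9, 140 and 160 in osteosarcoma, 93.0, 152 and 188 in synovial sarcoma, and 128, 142 and 195 in the controls. Its log2 fold changes were -0.27 (SE 0.14), -0.22 (SE 0.16) and -0.07 (SE 0.17) in the same 3 tumour types. The values of both transcripts overlapped between every tumour type and the controls.

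**Figure D2:**
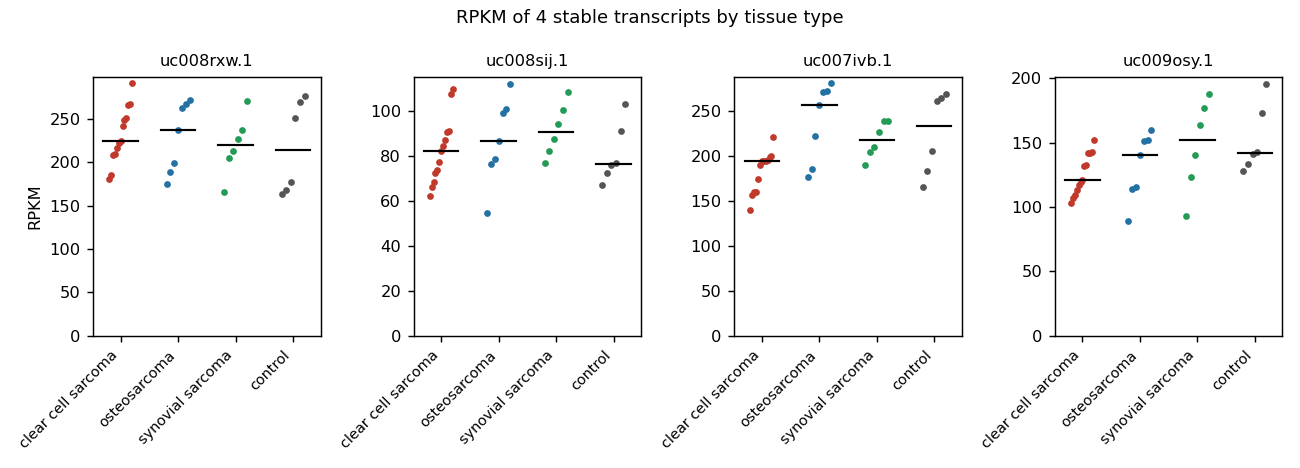
RPKM of 4 stable transcripts in each of the 32 libraries, by tissue type, with the median as a line. In every panel the 4 groups overlap, and the medians of uc008rxw.1 lie between 214 RPKM in the controls and 237 RPKM in osteosarcoma.

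The tissue medians of the 33, which the rule used, are given as a description. The osteosarcoma median was the highest of the 4 for 13 members, that of synovial sarcoma for 11, that of clear cell sarcoma for 3 and that of the controls for 6. The control median was the lowest for 15 members, that of clear cell sarcoma for 12, and those of osteosarcoma and synovial sarcoma for 3 each. Relative to the control median, 16 of 33 members (48.5%) were higher in clear cell sarcoma, 23 (69.7%) in osteosarcoma and 24 (72.7%) in synovial sarcoma. Over the other 742 abundant transcripts the shares were 64.6%, 69.4% and 65.0%, and the control median was the lowest for 57.3%, against 45.5% of the 33. Over the other 15197 tested transcripts the shares were 57.7%, 53.6% and 70.8%, and the control median was the lowest for 40.4%. The ratio of the highest to the lowest tissue median had a median of 1.32 over the members (1.10 to 1.49). Tissue type accounted for a median of 21.3% of a member's variance on the log2 scale (3.25% to 53.3%), against 39.5% over the other 742 abundant transcripts and 39.3% over the other tested ones. The limit on tissue medians makes such shares low.

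The fit over all 15230 tested transcripts called few of the 33. Against the controls, 7 members passed an adjusted p of 0.05 in clear cell sarcoma, 4 higher and 3 lower, where 51.0% of the tested transcripts did, 34.9% higher and 16.2% lower. In osteosarcoma 3 passed, all higher, against 39.7% of the tested transcripts, with 26.6% higher. In synovial sarcoma 4 passed, all higher, against 43.2% of the tested transcripts, with 36.5% higher. Some of these counts rested on few libraries. In osteosarcoma 1 member passed without Prx1Cre 42, against 43.5% of the tested transcripts, and 1 without the control Bone3, against 35.6%. In synovial sarcoma none passed in limma once libraries sharing a title number were averaged to 3 profiles, against 28% of the tested transcripts. Clear cell sarcoma had 7 without Prx1Cre 42 (52.4% of all tested) and 9 without Bone3 (45.6%). Synovial sarcoma had 4 in both of these fits (44.9% and 38.6%). With all libraries in the fit, 10 members passed in at least 1 tumour type, 23 in none, and no member in all 3. The rule used these contrasts, so the low counts follow from it. The median log2 fold changes of the 33 were 0.02 in clear cell sarcoma, 0.08 in osteosarcoma and 0.18 in synovial sarcoma, beside 0.35, 0.25 and 0.61 over all tested transcripts. Without Bone3 the medians of the 33 were -0.01, 0.03 and 0.16, and without Prx1Cre 42 that of osteosarcoma was 0.14. Single members still moved by as much as the rule allows. The member of 2332 bases had median RPKM of 117 in clear cell sarcoma, 85.6 in osteosarcoma and 78.4 in the controls, and a log2 fold change of 0.63 (SE 0.16) in clear cell sarcoma, the highest of any member there. The member of 1101 bases had a median RPKM of 105 in clear cell sarcoma, against 157 in the controls, and a log2 fold change of -0.47 (SE 0.13), the lowest there. These 2 were picked after their values were seen.

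The spread of the members between libraries was far above what counting of reads alone gives. A member had at least 34 to 3863 reads in its poorest library, with a median of 1150, and up to 12404 in its richest. Its standard deviation over the 32 libraries was 0.249 to 0.395 on the log2 scale (median 0.336), whereas counting error would give a median of 0.0327. The ratio of the 2 had a median of 9.89 and was over 5 for 30 of the 33. The lowest ratios, 2.11 and 3.43, were those of the shortest members, of 30 and 61 bases, with 34 to 133 and 98 to 312 reads per library. For the other 742 abundant transcripts the standard deviation had a median of 0.656 and the counting error a median of 0.0393. Counting error covers the sampling of reads only.

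Part of that spread was a shift of the 33 in a library on average, from which single members departed in both directions. The mean of the 33 in a library, relative to each member's own mean, held 20.8% of their summed variance. The offset of a library, the median of these differences, was -0.35 to 0.34 on the log2 scale in clear cell sarcoma, -0.23 to 0.25 in osteosarcoma, 0.02 to 0.23 in synovial sarcoma and -0.27 to 0.09 in the controls. Its mean was -0.05 ± 0.20 over 13 clear cell sarcomas (SD), 0.07 ± 0.19 over 7 osteosarcomas, 0.13 ± 0.08 over 6 synovial sarcomas and -0.07 ± 0.15 over 6 controls. The 33 thus stood higher than in the controls by 0.03 in clear cell sarcoma, 0.15 in osteosarcoma and 0.20 in synovial sarcoma, differences that the rule itself keeps small. All 6 synovial sarcomas were above 0. Within clear cell sarcoma the offset was -0.30 and -0.35 in the Bmi1IRESCreERT2 libraries, -0.31 and 0.01 in Prx1CreERT2, -0.13 to 0.11 in Rosa26CreER and -0.11 to 0.34 in TATCre. Within osteosarcoma the Col1Cre libraries had 0.09 to 0.25 and the Prx1Cre libraries -0.23, -0.15 and 0.19. These groups of 2 to 5 were not tested.

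**Figure D3:**
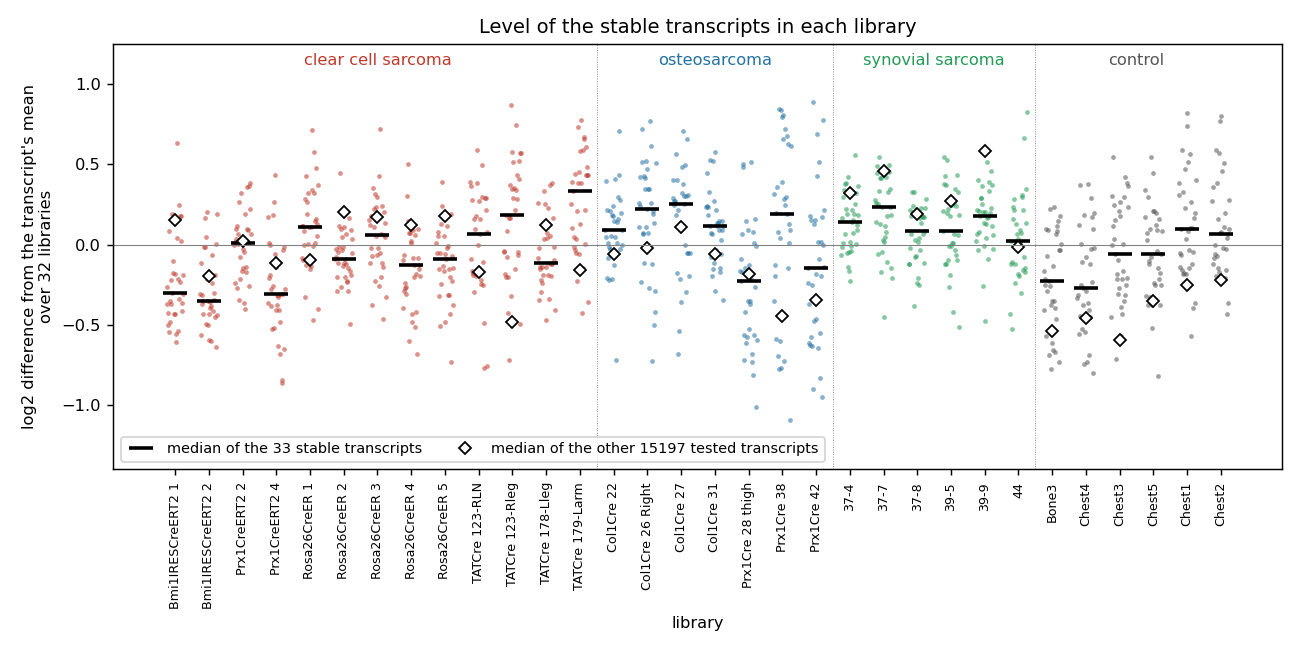
Log2 difference of each of the 33 stable transcripts from its own mean over 32 libraries, by library and tissue type. Black bars give the library's median of the 33 and open diamonds that of the other 15197 tested transcripts. The diamond lies below the bar in all 6 controls (-0.60 to -0.22). It does so too in most osteosarcomas, some clear cell sarcomas and synovial sarcoma 44, so this position is not particular to the controls. The diamonds spread more widely than the bars, between -0.60 and 0.59.

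The members scattered most widely in the osteosarcomas Prx1Cre 38 and Prx1Cre 42. They scattered about their library's offset by 0.55 and 0.47 on the log2 scale there (root mean square), by 0.38 in Prx1Cre 28 thigh and by 0.17 to 0.37 in the other 29 libraries. Over the other 742 abundant transcripts the scatter was 1.17, 1.14 and 0.85 in Prx1Cre 38, 42 and 28 thigh, and 0.80 to 1.03 in the controls. The 3 Prx1Cre osteosarcomas held the lowest value of 17 of the 33 members and the highest of 6, although they are 9.38% of the libraries. Among the other 742 abundant transcripts they held the lowest value of 196 (26.4%) and the highest of 384 (51.8%). The controls held the lowest value of 9 members (27.3%) and of 347 of the other 742 (46.8%). No member had its lowest value in a synovial sarcoma, and the share over the other 742 was not counted. The 4 TATCre libraries held the highest value of 11 members (33.3%), against 16.6% of the other 742. With the 3 Prx1Cre osteosarcomas left out of the rule, 89 transcripts met it, 32 of the 33 among them, and 44 met it with Prx1Cre 42 alone left out. These alternatives and counts describe the rule and are not tests.

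The scale on which the members are level was then set against the rest of the transcripts, which the rule did not choose. The median log2 difference of the 15197 tested non-members from their own means was -0.02 ± 0.20 over 13 clear cell sarcomas (SD), -0.14 ± 0.19 over 7 osteosarcomas, 0.30 ± 0.21 over 6 synovial sarcomas and -0.40 ± 0.15 over 6 controls. In 12 of 13 clear cell sarcomas, 5 of 7 osteosarcomas and 6 of 6 synovial sarcomas it was above the highest control. It was higher than in the controls by 0.38 in clear cell sarcoma (exact permutation test, two-sided, adjusted over 3 tumour types, p = 0.00325), by 0.26 in osteosarcoma (exact permutation test, adjusted p = 0.0268) and by 0.70 in synovial sarcoma (exact permutation test, adjusted p = 0.00325). These transcripts had to reach 1 RPKM in at least 6 libraries. A transcript high only in the 26 tumours meets that more easily than a transcript high only in the 6 controls. The filter can thus tilt this difference upward in the tumours, and the size of the tilt was not tested. The members' own differences, kept small by the rule, were 0.03, 0.15 and 0.20. Over the 742 other abundant transcripts the differences were 0.44, 0.54 and 0.33 (exact permutation tests, adjusted p = 0.0175, 0.0175 and 0.0368). These 742 met the rule's floor of 50 RPKM and failed its limit on range or on tissue medians. The same values thus shaped this set, and its differences give no independent support. The osteosarcoma call did not hold without the control Bone3 (difference 0.23, exact permutation test, adjusted p = 0.0530). That of synovial sarcoma did not hold over non-members with an RPKM of at least 100 in every library, where the difference was 0.28 (exact permutation test, adjusted p = 0.106).

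The make-up of the libraries differed between tumours and controls as well. At least 99.7% of the reads that RPKM was divided by, 8.11 to 13.1 M per library, were found again in transcripts with a recovered length, so that the values behave as shares of a closed total. The 10 most read transcripts of a library took 7.97% to 24.03% of its reads in clear cell sarcoma, 11.1% to 25.6% in osteosarcoma, 9.95% to 24.7% in synovial sarcoma and 23.9% to 29.8% in the controls. The mean share was 13.4% ± 4.14 over 13 clear cell sarcomas (SD), 16.9% ± 4.76 over 7 osteosarcomas, 16.2% ± 5.38 over 6 synovial sarcomas and 27.2% ± 2.78 over 6 controls. The share was lower than in the controls in each tumour type. The difference was -13.8 percentage points in clear cell sarcoma (exact permutation test, two-sided, adjusted over 3 tumour types, p = 0.000442), -10.3 in osteosarcoma (exact permutation test, adjusted p = 0.00524) and -10.995 in synovial sarcoma (exact permutation test, adjusted p = 0.00649). The synovial sarcoma call did not hold once libraries sharing a title number were averaged (difference -9.49, exact permutation test, adjusted p = 0.0714). Only Bmi1IRESCreERT2 2, Prx1Cre 42 and synovial sarcoma 44 were not below every control. With the reads outside the 10 most read transcripts as the denominator, the median log2 fold change of all tested transcripts was 0.18 in clear cell sarcoma, 0.13 in osteosarcoma and 0.46 in synovial sarcoma, and that of the 33 was -0.23, -0.11 and -0.02. In that fit 1 member was called higher and 9 lower in clear cell sarcoma, where 29.3% and 19.8% of all tested were, 4 lower in osteosarcoma (15.7% of all tested) and 2 lower in synovial sarcoma (8.15%). This measure and this denominator were chosen after seeing the data.

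**Figure D4:**
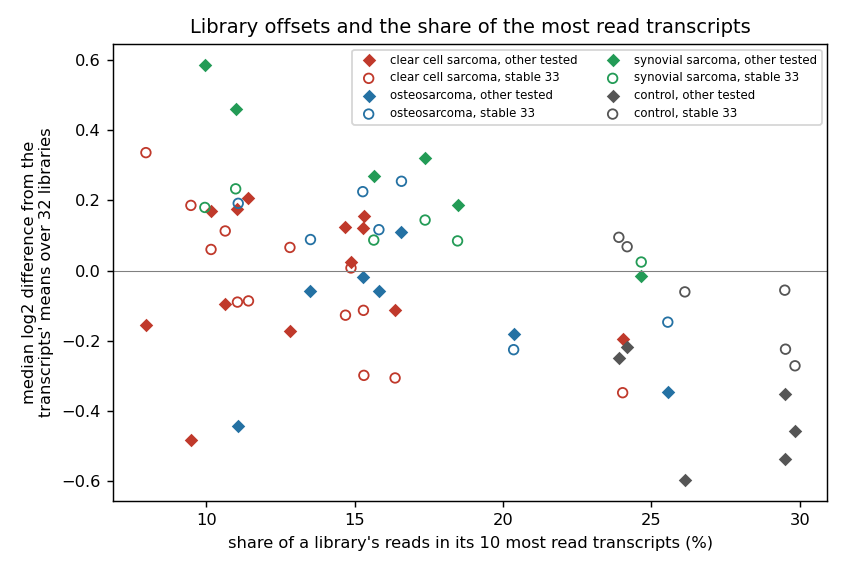
Median log2 difference of transcripts from their means over 32 libraries, against the share of a library's reads in its 10 most read transcripts (%), for 32 libraries coloured by tissue type. Filled diamonds are the other tested transcripts and open circles the stable 33. The controls lie between 23.9% and 29.8%, where their diamonds are all below 0 and their circles run between -0.27 and 0.09.

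The level of the 33 relative to the controls followed the scaling. Since they were chosen to be level in deposited RPKM, a scaling that shifts all transcripts of a library alike carries them with it. Their values and calls on such a scale describe that shift. Quantile normalization does not shift all transcripts of a library alike. On any of these scales the values and calls of the 33 support nothing. Scaling each library on the 33 themselves lowered the tumours relative to the controls. On the log2 scale the step was 0.03 in clear cell sarcoma, 0.15 in osteosarcoma and 0.20 in synovial sarcoma. The median ratio over transcripts above 0 in every library lowered the same 3 tumour types by 0.54, 0.46 and 0.76. On the median-ratio scale the median log2 fold change of the 33 was -0.51, -0.38 and -0.57, with 25, 14 and 20 members called lower and none higher, where 25.7%, 20.7% and 15.2% of all tested transcripts were called lower. Quantile normalization gave medians of -0.33, -0.35 and -0.05, with 16, 14 and 3 members called lower against 23.7%, 17.9% and 17.3% of all tested. In synovial sarcoma it took the median of all tested from 0.61 to -0.02, and that of the 33 from 0.18 to -0.05. Scaling on all 775 abundant transcripts gave medians of -0.38, -0.42 and -0.13, with 16, 14 and 6 called lower against 21.5%, 19.6% and 8.79%. Scaled on themselves, the members had 4 higher and 6 lower calls in clear cell sarcoma, where 34.7% and 16.3% of all tested were called, 3 lower in osteosarcoma (14.6%) and 2 lower in synovial sarcoma (7.86%). The median standard deviation of a member over the libraries was 0.383 on the median-ratio scale and 0.301 after scaling on the 33, against 0.336 as deposited. Scaling on the 33 takes out their shared library offset, so the smaller value there is built in. Of the 33, 10 still met the rule on the median-ratio scale, 13 after scaling on the 775 abundant transcripts, 25 after scaling on the 33 and 26 with the 10 most read transcripts left out of the denominator.

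**Figure D5:**
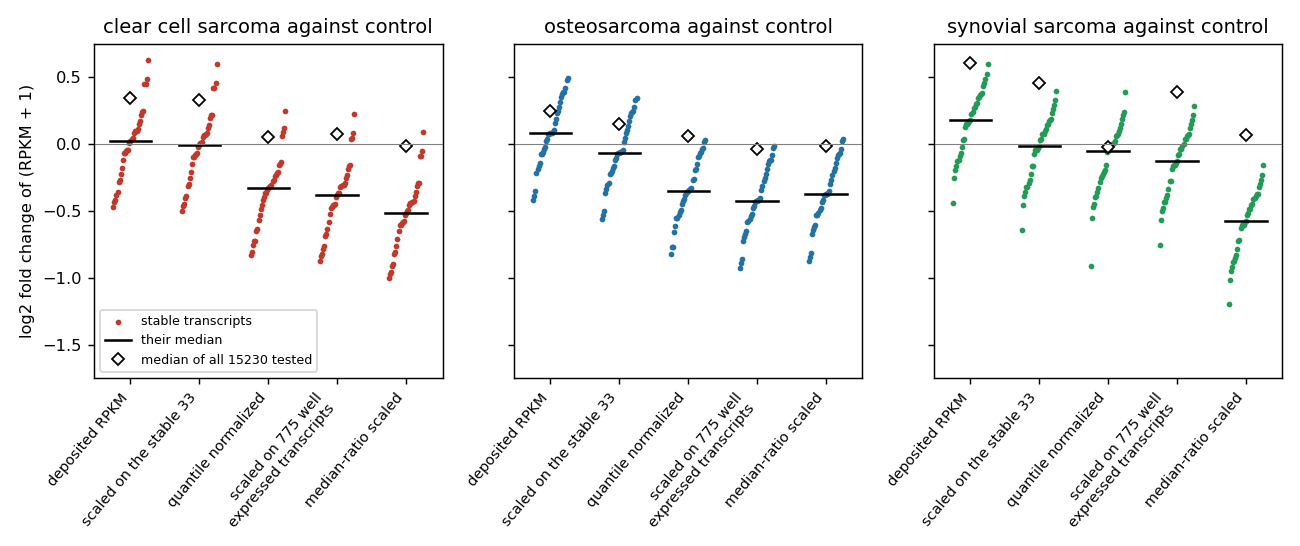
Log2 fold change of (RPKM + 1) of the 33 stable transcripts (points, sorted) against the controls in 3 tumour types under 5 scalings of the libraries. Black lines are their medians and open diamonds the median of all 15230 tested transcripts. On deposited values the lines lie at 0.02, 0.08 and 0.18, and on the median-ratio scale at -0.51, -0.38 and -0.57.

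The transcripts that met the rule on another scale overlapped the 33 to differing degrees. On RPKM scaled on the 33, 61 transcripts met it, of which 25 were shared (75.8% of the 33 and 40.98% of the 61). On median-ratio scaled values 45 transcripts met it, of which 10 were shared with the 33 (30.3% of the 33 and 22.2% of the 45). On quantile-normalized values 72 met it and 18 were shared, 54.5% of the 33. The 45 had a median difference from the controls, in deposited RPKM, of 0.55 in clear cell sarcoma, 0.53 in osteosarcoma and 0.63 in synovial sarcoma, against 0.02, 0.08 and 0.18 over the 33. Each list was level on the scale that chose it, and the files hold no measure outside these RPKM, such as added RNA of known amount, by which to tell the scales apart.

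The choice bears on the balance of higher and lower calls among the other transcripts. Outside the 33, with the deposited values, 68.4% of 7765 calls were higher in clear cell sarcoma than in the controls, 67.1% of 6038 in osteosarcoma and 84.5% of 6575 in synovial sarcoma. The filter of 1 RPKM in at least 6 libraries is more easily met by transcripts high only in tumours, so it can tilt these shares upward. Without the filter on low values they were 66.3% of 7863, 66.1% of 6132 and 83.2% of 6861. Scaling on the 33 gave 68.0% of 7752, 61.9% of 5811 and 79.1% of 5723. Leaving the 10 most read transcripts out of the denominator gave 59.7% of 7472, 59.4% of 5902 and 79.1% of 5946. Scaling on all 775 abundant transcripts gave 54.6%, 45.9% and 75.5%, quantile normalization 52.0%, 53.2% and 49.6%, and the median ratio 47.8%, 46.6% and 53.4%. The number of calls stayed within 1.5 times the deposited one under each of these scalings, while the balance of higher and lower ones moved.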

How the data were processed

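Per the labels' protocols, RNA was purified with Qiagen RNeasy and DNase and sequenced from Illumina TruSeq libraries. CASAVA 1.8.2, Novoalign 2.07.03 and mm9 are named in the submitters' processing notes, and the sources used here do not give the read counter. The authors deposited RPKM values with 1 column per library, which were matched by title. A second table, of human tumours, was not used here. Members and lists were chosen with earlier results of these data known, as were the alternatives.

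Groups came from the source labels and titles. Limma 3.58.1 (R 4.3.3, eBayes with trend, two-sided, Benjamini-Hochberg adjustment, threshold 0.05) was fitted to log2(RPKM + 1) of all 32 libraries in 1 model of 4 tissue types, over the 15230 transcripts that reached 1 RPKM in 6 or more libraries, with no covariate. A pseudocount of 1 understates changes of low transcripts. Offsets and read shares were compared over libraries by exact permutation tests (scipy 1.17.1). Whole reads, lengths and denominators were solved from the steps of the RPKM values for all 16398 transcripts above 0 in at least 6 libraries. Member reads were whole within 0.000853. Denominators were 8.11 to 13.1 M reads, and errors from them cover counting only. The limma fit and the recovery of lengths and denominators were tested on simulated data. The 4 printed identifiers are the 2 members of narrowest range with a positive and the 2 with a negative mean log2 fold change over the tumour types. Planned gene lists, marker lists and gene names were left out because no identifier could be paired with a gene. Alternatives covered the scaling, pseudocount, filter, short transcripts, shared title numbers, single libraries and the limits of the rule.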

Additional observations from a re-analysis of the deposited data

How the results depend on the processing

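Each count of calls outside the 33 kept within 1.5 times its value under every alternative run, except that averaging the libraries that share a title number left 4261 calls in synovial sarcoma against control, where 3 averaged profiles remain of 6 libraries. The offset of the non-members kept its direction under all alternatives, with an adjusted p over 0.05 in 2 cases: 0.23 in osteosarcoma without the control Bone3 (exact permutation test, adjusted p = 0.0530) and 0.28 in synovial sarcoma at an RPKM of at least 100 (exact permutation test, adjusted p = 0.106); the cause was not tested. The share of the 10 most read transcripts in synovial sarcoma differed from the controls by -9.49 percentage points with shared title numbers averaged (exact permutation test, adjusted p = 0.0714, with 3 profiles). The number of stable transcripts followed the limits: 68 at an RPKM of at least 25 and 14 at 100, 1 with a range of at most 2 and 62 with at most 4, 9 with a tighter limit on tissue medians, 53 with a limit of 2 and 54 with none, and 61 on RPKM scaled on the 33. No paired analysis was possible because no label ties a tumour library to a control. Members of 30 and 61 bases rest on few reads, which limits their precision.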
